A study of Mus musculus with 12 samples.

Results

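Gonadal white adipose tissue (WAT) was compared with liver across the whole array, using the 4 WAT and the 4 liver arrays of a series of 12, whose other 4 hold M. vastus lateralis muscle. The arrays were chosen by their tissue label, saline and treated mice were pooled, and treatment was kept as a term in the fit. Every mouse was a 12 week old female that lacked Ghsr, the gene of the receptor for acylated ghrelin, on a C57bl/6 background. Each tissue gave 2 arrays from mice given saline and 2 from mice given unacylated ghrelin (UAG) intraperitoneally at 20 nmol/kg, and all were killed 6 h later. No wild type array was analysed here, so the deletion is shared by both tissues and its part in a tissue difference cannot be told apart. Nothing in the labels ties an array to a mouse, and p-values therefore measure only the spread between these samples. RNA was hybridized to Affymetrix Mouse Genome arrays, which read each transcript with 1 or more probe sets of short oligonucleotides. The deposited values are intensities on a log2 scale.

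White fat stores triglyceride in a single large droplet per cell and releases fatty acids and glycerol when insulin falls, and it secretes hormones such as leptin and adiponectin. Liver makes most plasma proteins, bile acids and lipoproteins, disposes of nitrogen as urea, oxidizes drugs, and releases glucose between meals. Both tissues make fatty acids from carbohydrate, so their programmes share part of the lipid pathways and differ in others.

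Of 45037 probe sets tested, 9185 were higher in WAT (20.4%) and 8088 were higher in liver (18%) by limma at an adjusted p under 0.05. A size rule was added, because so many passed: probe sets at least 8-fold apart after intensities below 30 were set to 30. This left 598 probe sets for WAT (1.33%) and 766 for liver (1.7%). A gene was represented by its brightest probe set. Among 18194 genes 4645 were higher in WAT (25.5%) and 3680 in liver (20.2%). Of these 379 (2.08%) and 500 (2.75%) were at least 8-fold apart. These percentages are the background against which the counts of every gene group below are read. Arrays of the tissues did not overlap for 9163 of the 45037 probe sets toward WAT and 8281 toward liver, whether or not they passed. They did not overlap for any of the 379 and 500 genes. The median difference over all genes was 0.0018 on the log2 scale. The larger differences lay on the liver side: 152 genes were at least 64-fold higher in liver and 19 were at least 64-fold higher in WAT. Of the 500 liver genes 260 were below 30 on all 4 WAT arrays. Of the 379 WAT genes 114 were below 30 on all 4 liver arrays. Muscle means, floored alike, were nearer to WAT than to liver on the log2 scale for 310 of the 379 and 477 of the 500. A gene higher in WAT here is therefore not necessarily particular to fat. Several probe sets were present for 217 of the WAT and 182 of the liver genes at least 8-fold apart. Every probe set passed in the same direction for 161 and 154 of these. A probe set passed in the opposite direction for 8 and 1. With all probe sets of a gene averaged, 286 genes in WAT and 452 in liver were at least 8-fold apart. Folds are given from mean log2 values after that floor, and "at least" marks a gene with an array of the dimmer tissue below 30. Levels are mean intensities ± SD over the 4 arrays of a tissue, and levels of different genes are not comparable, since each has its own probes.

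**Figure D1:**
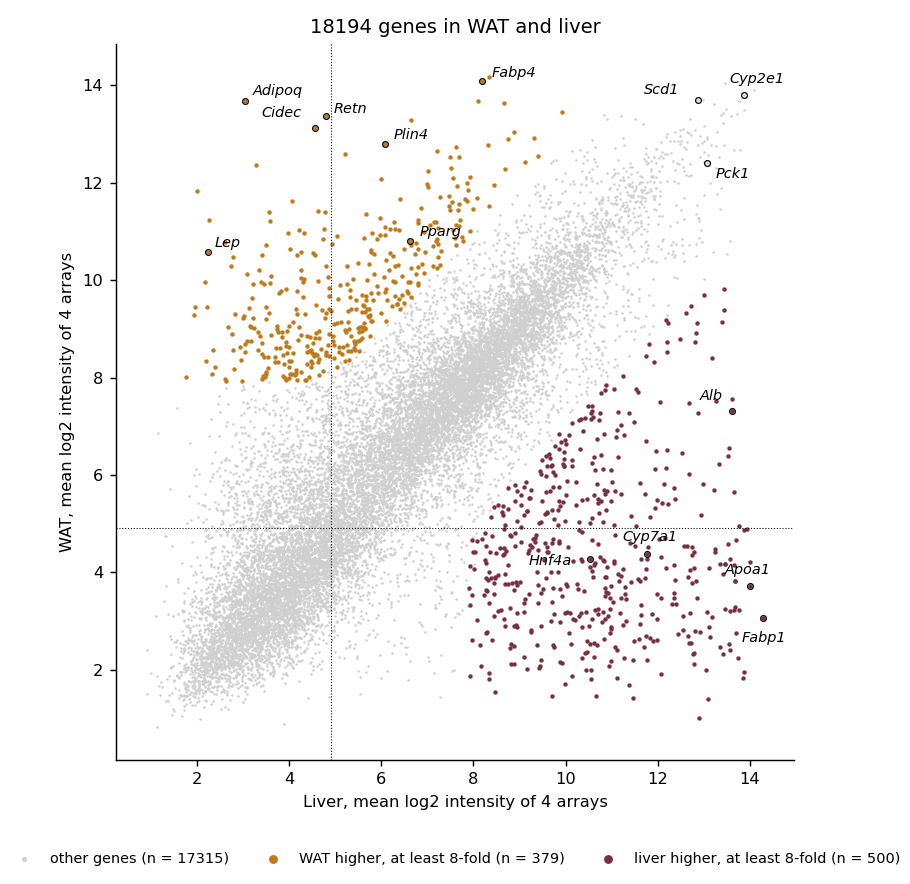
Mean log2 intensity of 18194 genes over the 4 liver arrays (x axis) and the 4 WAT arrays (y axis), each point a gene by its brightest probe set, with dotted lines at an intensity of 30. The 379 genes at least 8-fold higher in WAT lie at the upper left, the 500 at least 8-fold higher in liver at the lower right, and Cyp2e1, Pck1 and Scd1 lie near the diagonal at high intensity.

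Arrays of a tissue correlated with r of 0.951 to 0.962 in WAT and 0.925 to 0.946 in liver across probe sets, against 0.769 to 0.805 between the tissues. Sorted, the 8 arrays lay within 0.05 on the log2 scale at 97.9% of positions. Liver UAG replicate 2 stood apart at the top, where it reached 25724 and each of the other 7 arrays ended at 18498. Some differences between arrays touch the results and are given first. Of the 34 measured ribosomal protein genes 25 were higher in WAT and 2 in liver as deposited, and 7 did not pass. Centring every array on the median of all their probe sets moved WAT by 0.69 below its place in the deposited values. The median over all genes was then -0.69. By brightest probe set the 34 genes had a median difference of 0.49 on the log2 scale as deposited and -0.21 after that centring. Of the probe sets that passed, 53.2% were higher in WAT as deposited and 17.3% after that centring, so small differences depend on the scale. Among the genes named in the text, Acadl, Angptl4, Cebpa, Cox7a1, Cyp4b1, Gata6, Ghr, Glul, Gstm2, Hibch, Hprt, Id3, Irs2, Ivd, Scd1, Stab1 and Tfpi were higher in WAT only as deposited and did not pass after that centring, while Adgre1, Cyp2e1, Pck1, Pmvk and Pygl passed toward liver only after it. Markers of other tissue were high on the WAT saline arrays. WAT saline replicate 1 had a summed intensity of 20194 over 10 brown adipocyte markers, against 2108 to 4173 on the other WAT arrays, and Ucp1, the uncoupling protein of brown fat, stood at 6772 there and at 503 to 1677 on the others. WAT saline replicate 2 had 37582 over 10 smooth muscle markers, against 6699 to 7731. It had 4581 over 12 reproductive tract and ovary markers, against 1724 to 1926 on the other WAT and 2035 to 3368 on liver arrays. Of these 12 markers 4 were higher in WAT and 2 in liver, and 6 did not pass. Skeletal muscle markers ranged from 1325 to 5554 on WAT and from 151 to 300.0 on liver arrays. The part of those tissues in other WAT differences was not tested. For some genes named below that are known from them the difference is also given without the array concerned. For others it is not. Pkm, for example, stood at 2992 on WAT saline replicate 1 and at 1105 to 1306 on the other WAT arrays. In bulk tissue fewer cells of a type and less RNA per cell cannot be told apart.

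**Figure D2:**
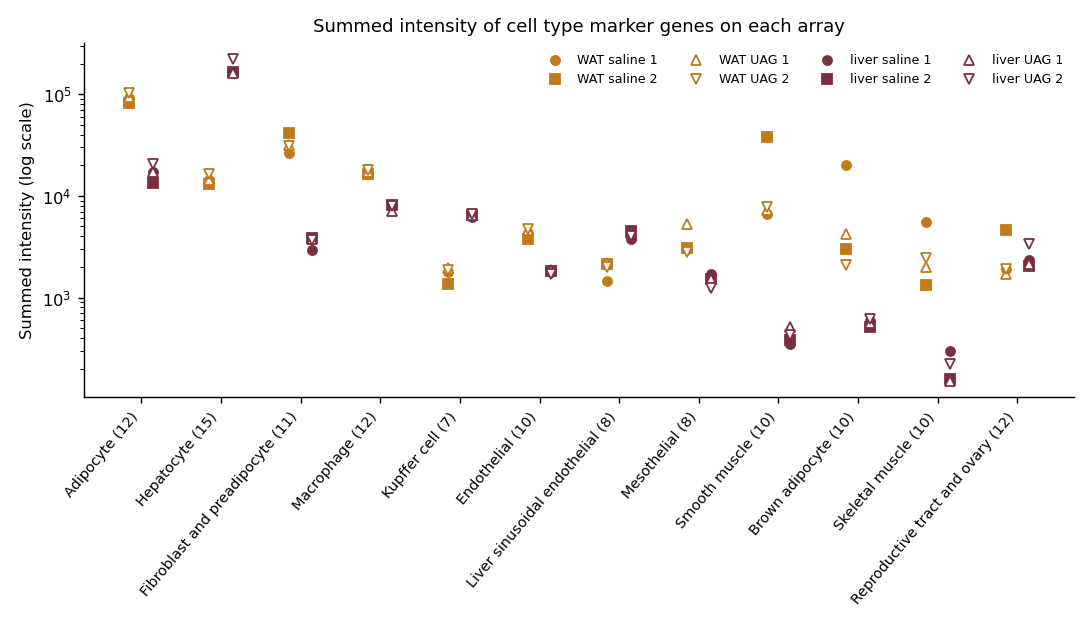
Summed intensity (log scale) of the measured genes of 12 cell type marker lists on each of the 8 arrays, with the number of genes in brackets, WAT at the left and liver at the right of each position. WAT saline replicate 2 stands alone for smooth muscle (37582) and WAT saline replicate 1 for brown adipocytes (20194), and each of the 4 WAT arrays exceeds each liver array for adipocyte markers.

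The defining markers matched the labels. Adipoq, the gene of adiponectin, gave 13419 and 12280.4 with saline and 12761 and 14161 with UAG in WAT and 5.01 and 17.4 with saline and 4.66 and 11.4 with UAG in liver. No liver array reached 30, and the WAT arrays lay within a narrow band at least 438-fold above (limma adjusted p = 1.28e-09). Alb, serum albumin, gave 12009.8 and 12638 with saline and 10618 and 15547 with UAG in liver and 115 and 138 with saline and 187 and 219 with UAG in WAT. Alb signal in WAT was thus low but above 30 on every array, and its difference was 78.7-fold (limma adjusted p = 1.47e-10). Of 12 measured adipocyte markers 10 were higher in WAT and 0 in liver, and of 15 hepatocyte markers 14 were higher in liver and 0 in WAT. The members that did not pass were Pck1 and Thrsp among the adipocyte markers, which both tissues use, and Cyp2e1 among the hepatocyte markers. Cyp2e1, the cytochrome P450 that oxidizes ethanol and acetone, stood at 14012 and 12825 with saline and 13923 and 16072 with UAG in WAT and at 13242 and 14048 with saline and 14618 and 18685 with UAG in liver. The tissues overlapped (limma adjusted p = 0.658), and Cyp2e1 ranked between 5 and 21 among all 45037 probe sets on every array. After centring on ribosomal proteins it was 0.78 lower in WAT on the log2 scale, with an adjusted p of 0.00841.

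The largest differences toward WAT included genes that fat cells secrete or use to store lipid. After Adipoq came Retn, the hormone resistin (10529.9 ± 549 in WAT and 31.7 ± 18.1 in liver, at least 297-fold), and Cidec, which fuses lipid droplets (8981 ± 1118 in WAT and 24.8 ± 9.31 in liver, at least 279-fold). Retnla, a resistin-like secreted protein that macrophages also make, followed with 4477 and 3683 with saline and 7221 and 6495 with UAG in WAT and 10.2 and 21.1 with saline and 9.46 and 4.48 with UAG in liver. Slc1a5, a glutamine transporter, averaged 6242 ± 1393 in WAT and 38.0 ± 10.1 in liver, and Aoc3, an amine oxidase of the fat cell surface, averaged 3673 ± 657 in WAT and 4.61 ± 2.98 in liver. Prkar2b, the regulatory subunit of the cAMP-dependent kinase that fat cells use in lipolysis, was at least 105-fold higher in WAT (3198 ± 523 in WAT and 18.9 ± 8.68 in liver). The droplet coat gene Plin4 (105-fold) and the caveolar gene Cav1 (99.7-fold) came next. Nnat, an imprinted gene of fat and nervous tissue (at least 89.6-fold), Adig, adipogenin (at least 81.3-fold), and Sncg, gamma-synuclein (at least 79.7-fold), completed the 12. Nnat was uneven within WAT, at 1577 and 1453 with saline and 4969 and 4583 with UAG. The saline and UAG arrays of WAT did not overlap for it, but no probe set passed the test of a tissue difference that changed with treatment.

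Besides Fabp1, the largest differences toward liver were mostly of plasma protein genes and of enzymes of amino acids and drugs. Fabp1, the liver fatty acid binding protein, gave 18498 and 18498 with saline and 18498 and 25724 with UAG in liver and 3.96 and 8.09 with saline and 13.4 and 11.3 with UAG in WAT, so that it was the brightest probe set on each liver array, no WAT array reached 30, and the difference was at least 669.6-fold (limma adjusted p = 4.41e-11). Bhmt, which makes methionine from betaine and homocysteine, followed (19.6 ± 7.37 in WAT and 16936 ± 4520.3 in liver, at least 551-fold). Apoa1, the main protein of high density lipoprotein, gave 14912 and 15153 with saline and 14390.3 and 22042 with UAG in liver and 8.34 and 19.8 with saline and 15.6 and 11.7 with UAG in WAT. The fibrinogen genes Fga (at least 500.5-fold) and Fgb (at least 491-fold), the protease inhibitors Serpina1c (at least 488-fold), Serpina1b (at least 438-fold) and Pzp (at least 463-fold), Ahsg, fetuin-A (at least 461-fold), came next. Cps1, the entry enzyme of the urea cycle (at least 445-fold), Apoa2 (at least 440.1-fold) and Cyp3a11, a drug-oxidizing P450 (at least 439.5-fold), completed the 12. Copies of Serpina1, Cyp2c, Ugt2b, Ces1 and Hamp are close in sequence, and the share of signal that belongs to each copy is uncertain.

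Promoters were searched for letters that hepatic factors are known to bind. Motifs of 9 letters were searched on both strands in RefSeq windows of GRCm38.p6 from 250 bases before to 50 after each transcript start, and 14368 of the 18194 genes had at least 1 window. GTTAATNAT, the first 9 letters of the HNF1 site, was in the windows of 27 of 401 genes at least 8-fold higher in liver (6.73%), of 2 of 286 at least 8-fold higher in WAT (0.699%) and of 104 genes overall (0.724%). CAAAGTCCA of HNF4 was in 3.74%, 0.699% and 0.592% of the 3 groups. TTGCNNAAT of C/EBP was in 5.49%, 1.40% and 2.34%. CAAAGGTCA, the downstream part of a direct repeat that HNF4 and PPAR bind, was in the windows of 6 (1.496%), 0 and 64 genes (0.445%). No match of the HNF4 letters can coincide with a match of the direct repeat letters at the same position, since they differ. These shares are descriptions, and a match is not a bound site. Of the 12 genes with the largest difference toward liver 11 had a window and 5 held a motif, and of the 12 toward WAT 10 had a window and 0 held a motif. The 250 bases before the start of those 5 liver genes are shown 5′ to 3′ on the strand of the gene, because they pair the sequence with the largest liver differences, and capitals mark the motif letters.
Fabp1, chr6:71199629-71199878, plus strand: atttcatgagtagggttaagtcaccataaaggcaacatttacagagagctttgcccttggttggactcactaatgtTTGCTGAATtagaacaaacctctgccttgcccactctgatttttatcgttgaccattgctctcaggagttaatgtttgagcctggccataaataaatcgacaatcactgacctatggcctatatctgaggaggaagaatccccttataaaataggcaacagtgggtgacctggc
Bhmt, chr13:93637759-93638008, minus strand: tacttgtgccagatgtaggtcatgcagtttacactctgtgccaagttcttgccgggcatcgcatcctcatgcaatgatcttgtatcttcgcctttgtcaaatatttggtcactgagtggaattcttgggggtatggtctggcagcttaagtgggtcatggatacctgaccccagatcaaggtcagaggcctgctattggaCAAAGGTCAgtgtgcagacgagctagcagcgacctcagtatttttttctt
Fga, chr3:83025903-83026152, plus strand: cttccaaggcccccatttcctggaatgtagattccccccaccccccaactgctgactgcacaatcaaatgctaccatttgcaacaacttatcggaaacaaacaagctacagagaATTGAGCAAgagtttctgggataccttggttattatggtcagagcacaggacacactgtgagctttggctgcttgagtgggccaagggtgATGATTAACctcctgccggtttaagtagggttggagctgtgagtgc
Pzp, chr6:128526721-128526970, minus strand: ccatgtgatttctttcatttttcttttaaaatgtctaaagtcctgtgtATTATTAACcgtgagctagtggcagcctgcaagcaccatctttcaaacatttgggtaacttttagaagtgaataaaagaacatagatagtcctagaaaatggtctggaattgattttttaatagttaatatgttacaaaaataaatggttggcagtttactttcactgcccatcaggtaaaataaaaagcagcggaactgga
Cyp3a11, chr5:145879855-145880104, minus strand: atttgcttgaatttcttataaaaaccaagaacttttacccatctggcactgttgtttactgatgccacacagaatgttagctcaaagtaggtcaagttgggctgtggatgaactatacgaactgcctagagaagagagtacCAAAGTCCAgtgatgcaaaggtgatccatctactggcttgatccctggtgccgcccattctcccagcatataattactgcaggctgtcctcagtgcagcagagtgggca
In Fga the C/EBP letters lay 136 bases and the HNF1 letters 46 bases before the start, both on the opposite strand. In Cyp3a11 the HNF4 letters began 109 bases, in Fabp1 the C/EBP letters 174 bases and in Bhmt the direct repeat letters 50 bases before it, and in Pzp the HNF1 letters lay 202 bases before it on the opposite strand.

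Lipid storage separated the tissues gene by gene. Of 19 measured lipid droplet genes 12 were higher in WAT and 6 in liver. Besides Cidec, Plin4 and Cav1, Cidea, a droplet protein known best from brown fat, was at least 36.0-fold higher in WAT. Its difference on the log2 scale was 6.48, and 5.66 when WAT saline replicate 1, the array with brown fat markers, was left out. On the liver side stood Hsd17b13, a droplet protein of hepatocytes (12.8 ± 1.57 in WAT and 1869 ± 130.1 in liver, at least 62.2-fold), Cideb, which serves the lipidation of lipoproteins (at least 47.0-fold), and Fitm1 (at least 6.17-fold), which buds droplets from the endoplasmic reticulum. Of 21 genes of triglyceride synthesis 12 were higher in WAT and 3 in liver as deposited, against 9 and 5 after centring on ribosomal proteins. Those higher in liver as deposited were Aqp9, Lpin2, a phosphatidate phosphatase (11.1-fold), and Gpat2 (at least 1.12-fold). Mogat1, a monoacylglycerol acyltransferase, was at 360.5 ± 109 in WAT and 30.5 ± 9.41 in liver, and Dgat1, which adds the last acyl chain and was chosen after its values were seen, at 2961 ± 268 in WAT and 325 ± 26.1 in liver. The lipases for stored and circulating fat were higher in WAT. Lipe, hormone-sensitive lipase, gave 4969 and 4048 with saline and 5311 and 5891 with UAG in WAT and 167 and 160.5 with saline and 238 and 170.1 with UAG in liver (27.6-fold). Lpl, the lipase that frees fatty acids from lipoproteins, gave 13785 and 12174 with saline and 12238 and 14478 with UAG in WAT and 249.5 and 303 with saline and 286 and 265 with UAG in liver (47.7-fold). For both, each WAT array exceeded every liver array by a wide margin. Liver was higher for the carboxylesterase genes Aadac (at least 168-fold), Ces2a (at least 82.9-fold) and Ces1g (at least 60.5-fold), which hydrolyze lipid esters and drugs. The 19 lipases and regulators as a group had 10 genes higher in WAT and 8 in liver as deposited and 7 and 8 after centring on ribosomal proteins.

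Enzymes of fatty acid synthesis were mostly higher in WAT as deposited, though the differences were small beside those of storage. Of 14 genes 8 were higher in WAT and 1 in liver as deposited, against 5 and 3 after centring on ribosomal proteins. Fasn, fatty acid synthase, gave 13535 and 10676 with saline and 9541 and 9608 with UAG in WAT and 2971 and 1509.6 with saline and 1602 and 1561 with UAG in liver, which did not overlap, and was 5.86-fold higher in WAT (limma adjusted p = 6.82e-07). Acaca, the carboxylase that supplies malonyl-CoA, was 6.94-fold higher, Acacb, its mitochondrial form, 4.36-fold, Me1, a source of NADPH, 4.39-fold, and Cs, citrate synthase, 3.55-fold. The exception was Oxsm, the mitochondrial ketoacyl synthase, which was 1.83-fold higher in liver. The pentose phosphate pathway supplies NADPH for this synthesis. Of its 10 genes 8 were higher in WAT and 1 in liver as deposited, against 3 and 2 after that centring, with Pgd at 4123 ± 1524 in WAT and 352 ± 32.7 in liver and Tkt at 10167 ± 1142 in WAT and 1911 ± 139 in liver. The exception there was Rbks, ribokinase (4.52-fold higher in liver). Enzymes that reshape fatty acids were divided. The desaturases Scd2, which makes monounsaturated chains, and Fads3 were 20.8-fold and at least 31.2-fold higher in WAT. Elovl2 (8.76 ± 1.27 in WAT and 3221 ± 293 in liver) and Fads2 (161 ± 42.0 in WAT and 2261 ± 113 in liver), which make long polyunsaturated chains, and Hacd3 (5.51-fold) were higher in liver, as were Fads1 (3.42-fold) and Elovl5 (1.80-fold), both chosen after their values were seen. Their list of 18 had 7 genes higher in WAT and 5 in liver as deposited and 4 and 6 after centring on ribosomal proteins.

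Cholesterol synthesis lay on the liver side. Of 21 genes 0 were higher in WAT and 20 in liver, and the median difference was -1.55 on the log2 scale. Msmo1, a sterol methyl oxidase, gave 3345 and 4599 with saline and 2157 and 6786 with UAG in liver and 583 and 245 with saline and 235 and 306 with UAG in WAT. Sqle, squalene epoxidase (176 ± 149.9 in WAT and 1325 ± 359.9 in liver, 9.08-fold), Hsd17b7 (9.29-fold) and Idi1, the isomerase of isoprenoid units (7.57-fold), followed, and Pmvk, named because it alone did not pass, was at 319.7 ± 170.2 in WAT and 389 ± 51.9 in liver (limma adjusted p = 0.292). For Msmo1, Sqle, Hsd17b7 and Idi1 the arrays of the tissues did not overlap. Sterol export to bile followed the same side, with Abcg5 at 9.86 ± 5.77 in WAT and 1268 ± 147 in liver and Abcg8 at 39.2 ± 4.08 in WAT and 839.8 ± 142 in liver. In WAT, Npc2, which carries cholesterol out of lysosomes, was 4.46-fold higher, and Abca1, which loads high density lipoprotein, 2.41-fold higher.

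Oxidation of fatty acids was split by organelle. Of 19 peroxisomal genes 2 were higher in WAT and 14 in liver, with a median of -1.81 on the log2 scale. Acox2, the oxidase of branched chains and bile acid precursors, was at 35.5 ± 16.4 in WAT and 1804 ± 134 in liver, Acot3 at 49.3 ± 24.3 in WAT and 1490.2 ± 519.5 in liver and Amacr at 267 ± 66.9 in WAT and 2432 ± 230.2 in liver. The peroxisomal exceptions were Crat, carnitine acetyltransferase (5.54-fold higher in WAT), and Abcd2, a peroxisomal importer (4.79-fold). Of 20 genes of mitochondrial oxidation 3 were higher in WAT and 6 in liver, and 11 did not pass. The entry step differed: Cpt1a, the carnitine palmitoyltransferase of the outer membrane, gave 3077 and 3359 with saline and 3644 and 3393 with UAG in liver and 378 and 682 with saline and 543 and 559.7 with UAG in WAT (6.36-fold, limma adjusted p = 1.23e-07). Acaa2, the last enzyme of the spiral, was 4.54-fold higher in liver, while Acadl, the dehydrogenase of long chains (1.89-fold), Cpt1c, the brain form of the carnitine enzyme (at least 3.21-fold), and Ucp3 (at least 6.54-fold), which muscle and brown fat use, were higher in WAT. Ucp3 differed by 2.67 on the log2 scale without WAT saline replicate 1. Without WAT saline replicate 2 the list held 6 genes toward WAT and 5 toward liver, so no direction is drawn from it. Ketone body genes lay on opposite sides. Bdh1, which makes hydroxybutyrate, was at 2353 and 3977 with saline and 3323 and 3210.1 with UAG in liver and at 60.5 and 106 with saline and 33.2 and 48.6 with UAG in WAT. Oxct1, which ketone users need and hepatocytes lack, was at 2065 and 2314 with saline and 2465 and 2489 with UAG in WAT and at 57.4 and 89.4 with saline and 80.1 and 86.1 with UAG in liver. Their folds were 55.7-fold toward liver and 30.2-fold toward WAT.

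The respiratory chain was near the background of all genes toward WAT and below it toward liver as deposited. Of 49 genes 14 were higher in WAT and 2 in liver and 33 did not pass as deposited, with a median of 0.22 on the log2 scale, while after centring on ribosomal proteins 1 was higher in WAT and 20 in liver. Genes known as muscle and brown fat forms were prominent: Cox8b, which brown fat and muscle use, was at 5296 and 1187 with saline and 1091 and 789 with UAG in WAT and at 32.3 and 8.08 with saline and 17.9 and 28.0 with UAG in liver, and Cox7a1 was 4.44-fold higher in WAT as deposited. Cox8b was highest on WAT saline replicate 1, the array with brown fat markers, and differed by 5.70 on the log2 scale without that array and by 6.33 with it. Cox7a1 differed by 1.33 on the log2 scale without that array and by 2.15 with it. Atp5g1, a subunit of the rotor ring of ATP synthase, was 3.71-fold higher in liver and Cox7c 1.60-fold. The 32 genes of pyruvate dehydrogenase and the citric acid cycle had 13 genes higher in WAT and 7 in liver as deposited and 9 and 16 after that centring, led by Pdk4, which switches pyruvate dehydrogenase off (11.1-fold toward WAT), and Suclg2, the succinyl-CoA ligase of GTP (2.72-fold toward liver).

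Related genes of glucose and lipid handling divided between the tissues. Pairs of related genes were written down in which 1 member is known as the hepatic form, and both members were measured for 19 of 26. Like the lists, the pairs were chosen with earlier results of these data known, so their split is a description. In 9 pairs the hepatic form was higher in liver and the other form higher in WAT, in 0 pairs the opposite held, in 2 pairs both were higher in WAT, in 1 both were higher in liver, and in 7 at least 1 member did not pass. Slc2a2, the glucose transporter of hepatocytes, gave 4838 and 5078 with saline and 5761 and 5532 with UAG in liver and 14.7 and 14.6 with saline and 18.7 and 10.5 with UAG in WAT. Slc2a4, the transporter that insulin brings to the cell surface, gave 2705 and 878 with saline and 1069 and 1382 with UAG in WAT and 83.7 and 72.3 with saline and 87.7 and 42.4 with UAG in liver. Neither pair of ranges overlapped, and the differences were at least 176-fold toward liver and 19.9-fold toward WAT. Slc2a4 was highest on WAT saline replicate 1, and without that array the difference was 3.99 on the log2 scale in place of 4.31. Pklr, the liver pyruvate kinase (22.9 ± 1.94 in WAT and 621 ± 101 in liver), faced Pkm (1664 ± 889 in WAT and 125 ± 27.5 in liver), and Gys2, the liver glycogen synthase (172 ± 129 in WAT and 1578 ± 335 in liver), faced Gys1 (447 ± 93.8 in WAT and 18.3 ± 2.13 in liver). Hk2, the insulin-responsive hexokinase, was at 1269.8 ± 542 in WAT and 73.6 ± 17.6 in liver. Among lipid pairs Fabp1 faced Fabp4 (59.3-fold toward WAT), Slc27a5 (at least 229-fold toward liver) faced Slc27a1 (21.5-fold toward WAT), and Cideb faced Cidec. The rest were the glycerol channels Aqp9 (at least 138-fold toward liver) and Aqp7 (at least 15.9-fold toward WAT), Ppara with Pparg, and the growth factor receptors Fgfr4 (at least 3.59-fold toward liver) and Fgfr1 (7.80-fold toward WAT). Both members were higher in WAT for Pfkl and Pfkp, the phosphofructokinases (3.09-fold and 8.58-fold), and for Irs2 and Irs1 (1.77-fold and 3.02-fold), of which Irs2 did not pass after centring on ribosomal proteins. Both were higher in liver for Acsl5 and Acsl4, the acyl-CoA synthetases (3.25-fold and 2.71-fold).

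**Figure D3:**
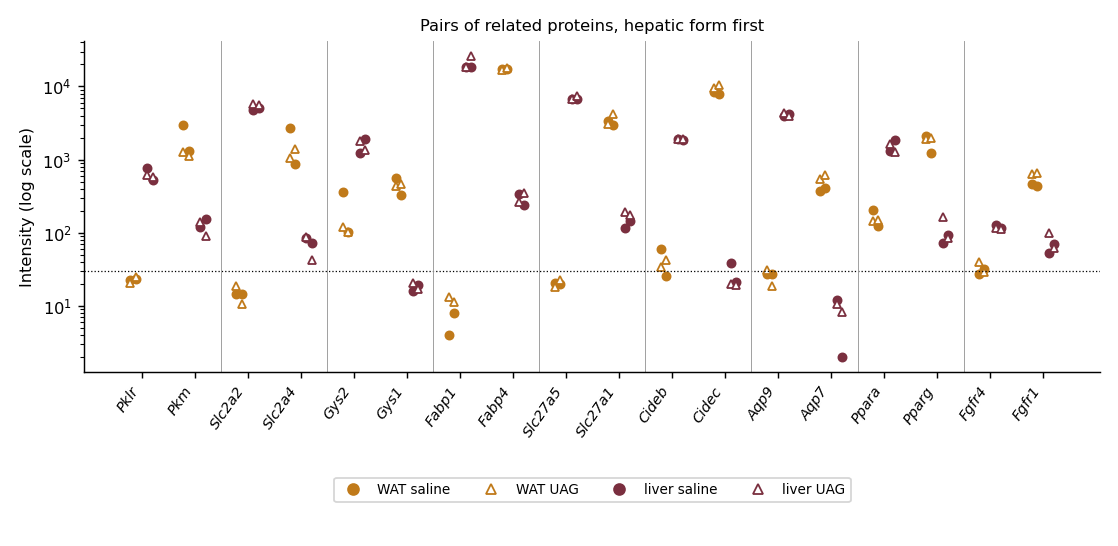
Intensity (log scale) on each of the 8 arrays of the 9 pairs in which the hepatic form (left of each pair) was higher in liver and the other form higher in WAT, circles for saline and triangles for UAG arrays, with a dotted line at 30. The tissues do not overlap for any of the 18 genes. Slc2a2, Fabp1, Slc27a5 and Pklr are among the hepatic forms that lie below 30 on all 4 WAT arrays.

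Along the glycolytic route 13 were higher in WAT and 6 in liver of 23 genes as deposited, against 10 and 8 after centring on ribosomal proteins. Pfkfb3, which sets the activator of phosphofructokinase, was 16.8-fold higher in WAT and Aldoa, aldolase, 9.93-fold. Liver was higher for Aldoc (22.0 ± 7.12 in WAT and 360.3 ± 44.3 in liver), Pklr and Pgk1 (1.70-fold). Release of glucose lay on the liver side at its last steps, with Fbp1 at 32.7 ± 13.7 in WAT and 14069 ± 2298 in liver and G6pc, the phosphatase that frees glucose, at 11.6 ± 4.02 in WAT and 2399 ± 547 in liver. Khk, which admits fructose, was 21.6-fold higher in liver. Pck1, phosphoenolpyruvate carboxykinase, which serves glucose release in liver and glycerol phosphate supply in fat, stood at 2645 and 6630.0 with saline and 7515 and 6377 with UAG in WAT and 6767 and 9214 with saline and 9104 and 9549 with UAG in liver. Its arrays overlapped only through the highest WAT and the lowest liver array, and it did not pass (limma adjusted p = 0.0527). Leaving out WAT saline replicate 1, where it was lowest, gave a difference of -0.36 with an adjusted p of 0.0490, and leaving out WAT saline replicate 2 gave -0.89 with 0.00909. Pcx, pyruvate carboxylase, was 3.29-fold higher in WAT, which uses it for citrate export, and Pck2 3.35-fold. Among 23 glycogen genes 10 were higher in WAT and 5 in liver as deposited and 7 and 9 after centring on ribosomal proteins. Pygb, the brain form of the phosphorylase, was 17.5-fold higher in WAT, and Pygl, the liver form, did not pass (2802 ± 1623 in WAT and 3594 ± 491 in liver, limma adjusted p = 0.212), although it was 0.89 lower in WAT with an adjusted p of 0.000809 without WAT saline replicate 1.

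Plasma proteins lay on the liver side. Of 17 plasma carrier genes 0 were higher in WAT and 16 in liver, with a median of -6.31 on the log2 scale, and of 18 acute-phase genes 0 were higher in WAT and 17 in liver. Ttr, transthyretin, was at 13.5 ± 8.37 in WAT and 13224 ± 2030.0 in liver, Hpx, hemopexin, at 12.0 ± 7.73 in WAT and 11298 ± 1326 in liver, and Hamp, the iron hormone hepcidin, at 18.6 ± 6.38 in WAT and 13104 ± 1982 in liver. Of 24 apolipoprotein and lipoprotein genes 7 were higher in WAT and 16 in liver. Of the 7 on the WAT side 5 were the lipase Lpl, its anchor Gpihbp1, its inhibitor Angptl4, the transfer protein Pltp and Abca1. The others were the apolipoproteins Apol6 (1619 ± 391 in WAT and 17.6 ± 8.78 in liver) and Apod (317 ± 267 in WAT and 17.3 ± 8.47 in liver). Of 27 coagulation genes 6 were higher in WAT and 20 in liver. Those on the WAT side are known from vessel walls and leukocytes: F13a1, the transglutaminase subunit of macrophages (2006 ± 315 in WAT and 22.8 ± 10.8 in liver), Plat, tissue plasminogen activator (at least 16.3-fold), Thbd, thrombomodulin (8.57-fold), Vwf (5.12-fold) and, chosen after their values were seen, F3, tissue factor (7.23-fold), and its inhibitor Tfpi (2.11-fold as deposited). Of 26 complement genes 8 were higher in WAT and 15 in liver as deposited, against 4 and 17 after centring on ribosomal proteins. Cfi (at least 217-fold), Mbl2 (at least 216-fold), C4bp (at least 122-fold) and Hc, complement C5 (at least 105-fold), led on the liver side, and C1qa (1951 ± 87.0 in WAT and 805 ± 28.0 in liver), C5ar1 and Cd55, which phagocytes and other cells express, lay on the WAT side.

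Hormones of both tissues were on the array. Lep, leptin, gave 1495 and 392 with saline and 2762 and 3283 with UAG in WAT and 4.36 and 3.88 with saline and 4.26 and 6.69 with UAG in liver, with no overlap and a difference of at least 50.6-fold. Nrg4, a secreted ligand of fat, was 4.95-fold higher in WAT. Several genes known as adipokines were nevertheless higher in liver: Agt, angiotensinogen (1161 ± 496 in WAT and 5262 ± 381 in liver), Lcn2 (at least 4.84-fold), Dpp4 (3.56-fold) and, chosen after their values were seen, Rbp4 (6503 ± 767 in WAT and 13114 ± 1873 in liver) and Rarres2, chemerin (1652 ± 494 in WAT and 4282 ± 174 in liver). The adipokine list of 17 had 7 genes higher in WAT and 6 in liver as deposited and 5 and 8 after centring on ribosomal proteins. Igf1, the hormone through which growth hormone acts on growth, gave 5149 and 4897 with saline and 4936 and 5929 with UAG in liver and 1591 and 1603 with saline and 1258 and 1297 with UAG in WAT, without overlap (3.65-fold, limma adjusted p = 2.1e-07). Its binding proteins divided: Igfbp2 (77.3 ± 39.7 in WAT and 4714 ± 816 in liver) and Igfbp1 (3.40 ± 1.06 in WAT and 1239 ± 832 in liver) were higher in liver. Igfbp6 (2771 ± 818 in WAT and 29.8 ± 15.1 in liver) and Igfbp5 (1599 ± 468 in WAT and 166 ± 60.0 in liver) were higher in WAT. Ghr, the growth hormone receptor, chosen after its values were seen, was at 7892 ± 1342 in WAT and 4618 ± 243 in liver. It was 1.69-fold higher in WAT as deposited.

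Enzymes of detoxification and bile acids were higher in liver. Of 36 cytochrome P450 genes 2 were higher in WAT and 31 in liver, with a median of -6.64 on the log2 scale. Cyp3a25 was at 2.69 ± 0.443 in WAT and 8799 ± 609 in liver, Cyp2c50 at 10.1 ± 4.53 in WAT and 13065 ± 2299 in liver and Cyp2c29 at 17.2 ± 3.44 in WAT and 8950.1 ± 1274 in liver, and none of their WAT arrays reached 30. The 2 on the WAT side were Cyp1b1, a P450 of stromal cells (229 ± 31.9 in WAT and 34.7 ± 10.5 in liver), and Cyp4b1 (1038 ± 216 in WAT and 468 ± 24.8 in liver). Of 21 genes of bile acid synthesis and transport 0 were higher in WAT and 19 in liver. Cyp7a1, the rate-limiting enzyme of bile acid synthesis, gave 3495 and 2063 with saline and 3478 and 5992 with UAG in liver and 20.4 and 15.1 with saline and 22.7 and 26.8 with UAG in WAT. The uptake carrier Slc10a1 (14.5 ± 2.98 in WAT and 7317 ± 809 in liver) and Slco1b2 (9.02 ± 3.56 in WAT and 6029.9 ± 375 in liver) showed the same separation. Of 37 conjugating enzymes 4 were higher in WAT and 29 in liver. Those on the WAT side use glutathione: Mgst2 (592 ± 56.5 in WAT and 13.4 ± 8.54 in liver), Mgst3 (5.99-fold), Gstm5 (3.18-fold) and, chosen after its values were seen, Gstm2 (1.65-fold as deposited).

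Nitrogen disposal followed. Of 15 genes of urea and ammonia 1 was higher in WAT and 12 in liver. Cps1 gave 13076 and 11381 with saline and 12465 and 17129 with UAG in liver and 3.96 and 12.7 with saline and 6.77 and 6.03 with UAG in WAT, which did not overlap. Otc was at 7.11 ± 2.80 in WAT and 5548 ± 301 in liver. Arg1, arginase, was at 50.7 ± 79.3 in WAT and 11348 ± 2172 in liver, with 169 on WAT saline replicate 2 and at most 18.6 on the other WAT arrays. The exception was Glul, which makes glutamine from ammonia and was 1.66-fold higher in WAT as deposited (6610.4 ± 434 in WAT and 4019 ± 568 in liver). Of 34 genes of amino acid breakdown 2 were higher in WAT and 30 in liver. Gnmt, which uses methyl groups (at least 348-fold), Mat1a, which makes the methyl donor (at least 307-fold), and Tdo2, which breaks down tryptophan (at least 363-fold), were higher in liver. Hibch (1.87-fold) and Ivd (1.31-fold), both of branched chains, were higher in WAT as deposited. Of 21 genes of branched-chain breakdown 7 were higher in WAT and 3 in liver and 11 did not pass as deposited, and after centring on ribosomal proteins 3 were higher in WAT and 11 in liver. Bcat2, the transaminase that liver is known to lack, gave 791 and 573 with saline and 620.1 and 1035 with UAG in WAT and 104 and 116 with saline and 87.9 and 63.7 with UAG in liver, 8.11-fold apart. Bckdk, the kinase that switches the branched-chain dehydrogenase off, was 2.60-fold higher in WAT. Ppm1k, the phosphatase that switches it on (4.98-fold), its subunit Dbt (2.25-fold) and Acad8 (1.61-fold) were higher in liver.

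**Figure D4:**
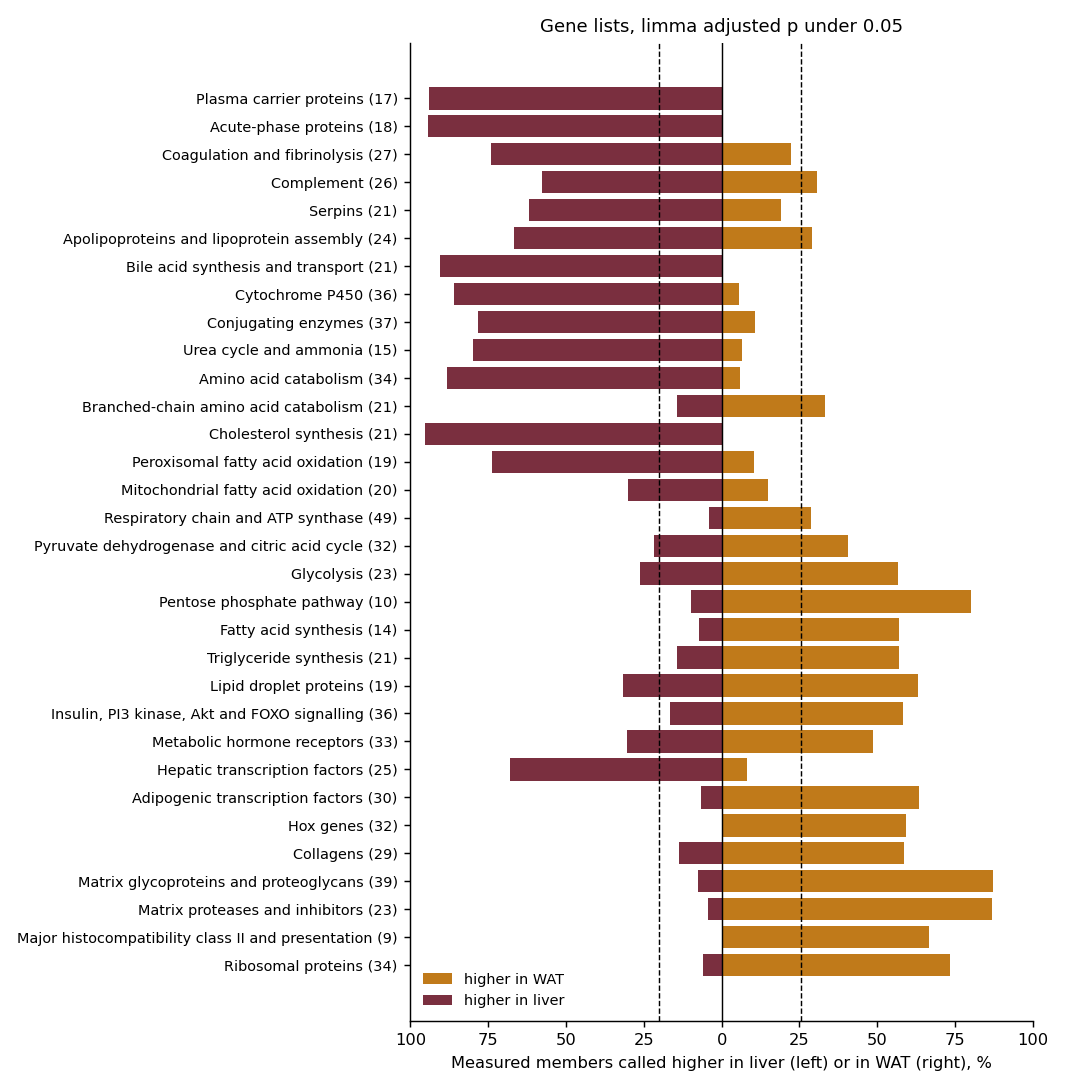
Share of the measured members of 32 gene lists (number measured in brackets) that passed limma at an adjusted p under 0.05 in the deposited values, higher in liver to the left and in WAT to the right, with dashed lines at the shares over all genes, 20.2% and 25.5%. The cholesterol synthesis, bile acid, plasma carrier and acute-phase lists have 0 members toward WAT, and the Hox and class II lists 0 toward liver.

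Transcription factors known from each cell type lay mostly on its side. Of 25 hepatic factors 2 were higher in WAT and 17 in liver, and of 30 adipogenic factors 19 were higher in WAT and 2 in liver as deposited. After centring on ribosomal proteins the numbers were 0 and 22 for the hepatic and 13 and 6 for the adipogenic factors. Hnf4a, the nuclear receptor that sustains hepatocyte genes, gave 1559 and 1433 with saline and 1625 and 1344 with UAG in liver and 23.8 and 18.3 with saline and 20.8 and 15.2 with UAG in WAT, with each WAT array below 30 (at least 49.5-fold). Nr1h4, the bile acid receptor (19.5 ± 2.25 in WAT and 1301 ± 69.2 in liver), Nr1i3, a sensor of drugs (5.05 ± 2.05 in WAT and 1313 ± 154 in liver), and Creb3l3, which drives fasting and lipoprotein genes (44.8 ± 8.57 in WAT and 2019 ± 134 in liver), also separated. Pparg, the factor that makes fat cells, gave 2074 and 1244 with saline and 1939.8 and 2001 with UAG in WAT and 73.6 and 94.2 with saline and 163 and 84.1 with UAG in liver, with no overlap (18.0-fold). Its relative Ppara, which drives fatty acid oxidation, gave 1294 and 1878 with saline and 1636 and 1268 with UAG in liver and 205 and 122 with saline and 146 and 152 with UAG in WAT (9.76-fold). Ebf1 (362 ± 34.7 in WAT and 16.5 ± 6.09 in liver) and Prrx1 (540.0 ± 163 in WAT and 18.8 ± 4.22 in liver), of fat cells and their precursors, and Klf4 (828 ± 205 in WAT and 46.3 ± 27.2 in liver) were higher in WAT. Ppargc1a, the coactivator of oxidation and glucose release (3.72-fold), and Klf15 (1.73-fold) were on the adipogenic list but higher in liver, and Gata6, on the hepatic list, was 2.24-fold higher in WAT as deposited while Gata4 was at least 5.02-fold higher in liver. Cebpa, on both lists, stood at 4241 and 3901 with saline and 4689.6 and 4837 with UAG in WAT and 2961 and 2458 with saline and 2921 and 2176 with UAG in liver, and this difference of 1.69-fold passed as deposited (limma adjusted p = 0.000665) but not after centring on ribosomal proteins (adjusted p = 0.807). Thra and Thrb, the thyroid hormone receptors, went opposite ways. Thra was 3.22-fold higher in WAT, and Thrb, chosen after its values were seen, 2.51-fold higher in liver.

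**Figure D5:**
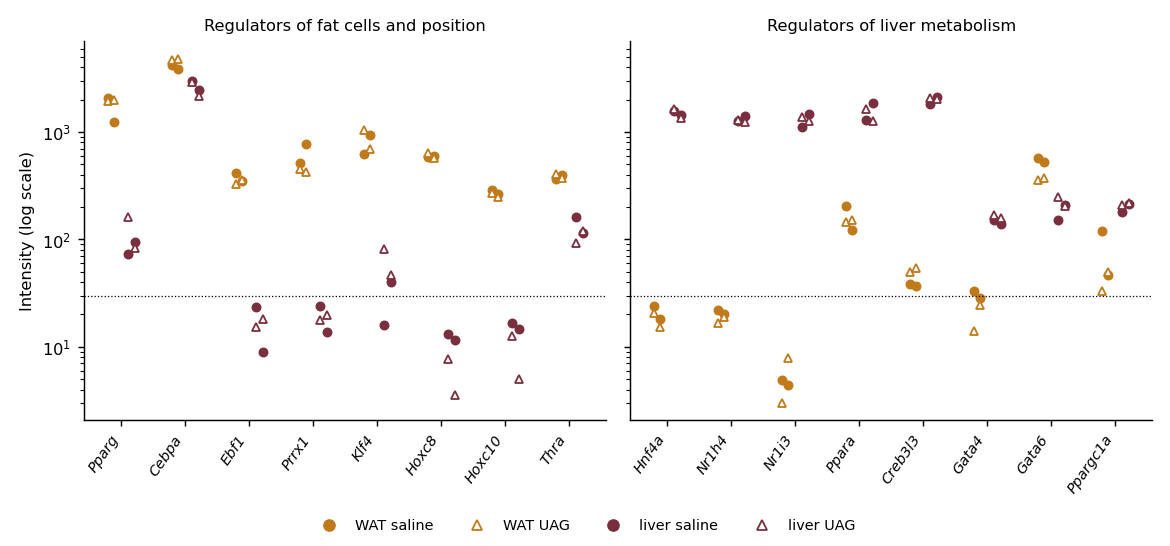
Intensity (log scale) on each of the 8 arrays of 8 regulators of fat cells and body position (left panel) and 8 of liver metabolism (right panel), circles for saline and triangles for UAG arrays, with a dotted line at 30. Cebpa is high in both tissues, Hnf4a, Nr1h4 and Nr1i3 are below 30 on all 4 WAT arrays, and Gata6 is the right-hand gene that is higher in WAT.

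Genes of body position lay mostly on the WAT side. Of 32 measured Hox genes, which record where along the body a mesodermal cell arose, 19 were higher in WAT and 0 in liver as deposited, against 14 and 2 after centring on ribosomal proteins. Without both WAT saline arrays 14 were higher in WAT and 0 in liver. Hoxc8 gave 581 and 593 with saline and 642 and 569.7 with UAG in WAT and 13.1 and 11.5 with saline and 7.71 and 3.59 with UAG in liver, so each liver array was below 30, and the difference was at least 19.9-fold (limma adjusted p = 3.04e-08). Hoxd8 (356 ± 28.0 in WAT and 24.9 ± 6.68 in liver), Hoxc10 (267 ± 16.9 in WAT and 12.2 ± 5.06 in liver) and Hoxd9 (222 ± 31.1 in WAT and 6.33 ± 1.71 in liver) showed the same form. Hoxa10 and Hoxa11 also mark the reproductive tract, whose markers were highest on WAT saline replicate 2. Without both WAT saline arrays Hoxa10 was 3.88 higher in WAT on the log2 scale in place of 4.86, while Hoxa11 did not pass.

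Hormone and nutrient receptors differed gene by gene. Of 33 genes 16 were higher in WAT and 10 in liver as deposited and 10 and 15 after centring on ribosomal proteins. Gcgr, the glucagon receptor, gave 869 and 821 with saline and 982 and 755 with UAG in liver and 6.50 and 9.15 with saline and 16.5 and 27.3 with UAG in WAT, and each WAT array was below 30 (at least 28.4-fold). Egfr (7.32-fold) and Avpr1a, a vasopressin receptor (7.67-fold), were also higher in liver. On the WAT side were Npr3, which clears natriuretic peptides (2173 ± 1294 in WAT and 51.4 ± 17.3 in liver), Acvr1c, an activin receptor of fat cells (639 ± 120.3 in WAT and 9.42 ± 7.71 in liver), and Hcar1, the lactate receptor that restrains lipolysis (374 and 487 with saline and 584 and 539.6 with UAG in WAT and 5.17 and 18.6 with saline and 6.36 and 16.2 with UAG in liver). Insulin signalling had 21 genes higher in WAT and 6 in liver of 36 genes as deposited and 6 and 13 after that centring, so no direction is drawn for the list. The adaptor genes Grb10 and Grb14, which both bind and restrain the insulin receptor, lay on opposite sides. Grb10 gave 897 and 1219 with saline and 1393 and 1446 with UAG in WAT and 80.9 and 109 with saline and 102 and 110.0 with UAG in liver. Grb14 gave 792 and 725 with saline and 720.0 and 656 with UAG in liver and 129 and 74.4 with saline and 68.9 and 60.8 with UAG in WAT. Neither overlapped, and the folds were 12.2-fold toward WAT and 9.05-fold toward liver. Irs3, an insulin receptor substrate of rodent fat, was at 258 ± 23.0 in WAT and 3.50 ± 1.10 in liver, and Tbc1d4, which holds Slc2a4 inside the cell until insulin acts, was 5.78-fold higher in WAT. Insr, the receptor itself, was 1.71-fold higher in liver by its brightest probe set (limma adjusted p = 0.00095), but 1 of its 3 probe sets passed and their mean did not (adjusted p = 0.117).

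Of 9 genes of the ghrelin system 1 was higher in WAT and 3 in liver. Ghsr lay between 3.80 and 14.3 on WAT and between 4.28 and 19.0 on liver arrays, below 30 throughout, and with no wild type tissue this checks nothing about the deletion. Ghrl, ghrelin, and Mboat4, its acyltransferase, averaged below 30 in both tissues. Ces1c, an esterase of plasma, was at 6.17 ± 2.65 in WAT and 12021 ± 1720.0 in liver, Lypla1, an acyl-protein thioesterase that removes acyl groups, was 2.26-fold higher in liver, and Gpr39, a receptor related to Ghsr, at least 2.33-fold. Cd36, a fatty acid carrier and a candidate receptor of the axis, was 11.5-fold higher in WAT.

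Matrix and stromal genes were higher in WAT. Of 39 matrix glycoproteins 34 were higher in WAT and 3 in liver, of 23 matrix proteases and their inhibitors 20 were higher in WAT and 1 in liver, and of 29 collagens 17 were higher in WAT and 4 in liver. Without both WAT saline arrays the numbers toward WAT were 32, 20 and 16. After centring on ribosomal proteins the collagens had 14 and 7. Col1a1, of fibrillar collagen, gave 754 and 3728 with saline and 1299 and 1237 with UAG in WAT and 11.6 and 27.4 with saline and 53.8 and 17.9 with UAG in liver, and was at least 42.0-fold higher in WAT. Col6a1 (24.7-fold), the laminin chain Lama4 (at least 38.5-fold), Timp4, a protease inhibitor (at least 32.3-fold), and Mfap5, of microfibrils (at least 48.1-fold), followed. Liver was higher for Vtn, vitronectin, which circulates in plasma (186 ± 27.9 in WAT and 9794 ± 379.6 in liver), Fn1, fibronectin (1.86-fold), Lama1 (at least 1.51-fold), Mmp19 (1.73-fold), Col13a1 (at least 3.62-fold), Col27a1 (2.00-fold) and Col18a1, the source of endostatin (355 ± 56.7 in WAT and 1783 ± 122 in liver). Col10a1, chosen after its values were seen, passed toward liver with every array below 30. Precursor and fibroblast markers passed toward WAT for 10 of 11 and mesothelial markers for 7 of 8, with Upk3b at 1605 ± 684 in WAT and 23.7 ± 7.34 in liver. The exception was Krt18, a keratin of hepatocytes (11.1-fold higher in liver). All 10 smooth muscle markers were higher in WAT, 9 of them without both WAT saline arrays. Tagln was at 1372 and 6938 with saline and 1972 and 2440.4 with UAG in WAT, and WAT saline replicate 2 was its highest array. Its difference was 5.08 on the log2 scale without that array and 5.68 with it.

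Markers of resident immune cells and vessels followed. The macrophage markers had 8 of 12 higher in WAT and 1, Mpeg1 (1.95-fold), in liver as deposited, against 5 and 4 after centring on ribosomal proteins, and Lyz2, lysozyme, was at 4037 ± 140.4 in WAT and 1102 ± 108 in liver. In contrast, 6 of 7 Kupffer cell markers, the macrophages of liver, were higher in liver, with Clec4f at 24.3 ± 2.98 in WAT and 937 ± 85.6 in liver and Vsig4 at 58.1 ± 7.24 in WAT and 1194 ± 95.2 in liver. The exception was Id3 (2.21-fold higher in WAT as deposited). Adgre1, which both populations carry, did not pass as deposited (424 ± 57.1 in WAT and 414 ± 49.7 in liver, limma adjusted p = 0.859), and after centring on ribosomal proteins it was 0.66 lower in WAT. Of 9 class II presentation genes 6 were higher in WAT and 0 in liver, with Cd74 at 2754 and 3448 with saline and 4005 and 3874 with UAG in WAT and 499 and 816 with saline and 779 and 554 with UAG in liver, which did not overlap. General endothelial markers passed toward WAT for 9 of 10 as deposited, and for 6 after that centring with 1 toward liver, with Emcn at 546 ± 80.4 in WAT and 116 ± 20.8 in liver. Sinusoidal markers passed toward liver for 6 of 8, with Clec4g at 19.3 ± 4.70 in WAT and 1147 ± 104 in liver and Stab2 at 48.8 ± 7.05 in WAT and 529.5 ± 65.7 in liver. Lyve1, a lymphatic and sinusoidal marker, was 4.54-fold higher in WAT, and Stab1, a scavenger receptor, 1.35-fold as deposited. The chemokines Ccl11, which attracts eosinophils (699.8 ± 110.2 in WAT and 4.84 ± 1.47 in liver), and Ccl8 (458 ± 257 in WAT and 55.7 ± 46.0 in liver) were higher in WAT.

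General cell functions were compared last. Of 20 circadian genes 5 were higher in WAT and 5 in liver as deposited, against 1 and 11 after centring on ribosomal proteins, so no direction is drawn from the list, and Csnk1e (3.67-fold toward WAT), Hlf (3.25-fold toward liver) and Nfil3 (3.12-fold toward liver) were among them. Of 23 genes of folding and secretion in the endoplasmic reticulum 0 were higher in WAT and 15 in liver as deposited and 0 and 23 after that centring, with Pdia5 (9.11-fold) and Ero1b (6.47-fold) among those higher in liver. Of 34 ribosomal protein genes 25 were higher in WAT and 2 in liver as deposited. After centring on the median of all their probe sets the numbers were 2 and 6. Rplp2 was at 9429 ± 420.1 in WAT and 3279 ± 120.0 in liver. The common reference genes had 4 genes higher in WAT and 1 in liver of 11 as deposited and 0 and 6 after that centring, and Hprt, often used for scaling, was 1.61-fold higher in WAT as deposited and differed by -0.0066 on the log2 scale after it.

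Genes outside every list added further differences. Toward WAT, besides Retnla, Slc1a5, Aoc3, Prkar2b, Nnat and Adig, were Rgcc, a regulator of the cell cycle (2485 ± 797 in WAT and 13.8 ± 6.69 in liver), and Slc36a2, an amino acid transporter (2130.2 ± 462 in WAT and 19.9 ± 7.41 in liver). Gnai1, an inhibitory G protein subunit, was at 4418 ± 1128 in WAT and 67.9 ± 24.8 in liver, and Chst1, a sulfotransferase, at 2189 ± 604 in WAT and 27.8 ± 7.33 in liver. Toward liver were Uox, which breaks down urate (26.5 ± 9.04 in WAT and 13426 ± 1589.6 in liver), Cyp2c68 (22.3 ± 2.08 in WAT and 9750.2 ± 1432 in liver) and Rgn, regucalcin (8.17 ± 3.98 in WAT and 8928 ± 950.1 in liver). Akr1c6, a steroid dehydrogenase (4.05 ± 0.582 in WAT and 8568 ± 1037 in liver), and Hrg, a plasma glycoprotein (11.5 ± 3.82 in WAT and 7369.8 ± 108 in liver), came next. The others were Sult2a8, a sulfotransferase (6.19 ± 2.56 in WAT and 6572 ± 177 in liver), 1300017J02Rik (24.1 ± 6.40 in WAT and 6412 ± 549.6 in liver), Pigr, which carries immunoglobulins into bile (24.0 ± 6.02 in WAT and 6112 ± 426 in liver), Slc38a4, an amino acid transporter (18.3 ± 4.81 in WAT and 5280.4 ± 227 in liver), and Itih2, a plasma protein (at least 136-fold). These 20 genes were picked only among genes whose arrays did not overlap between the tissues.

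The tissue difference was similar with saline and with UAG. Estimated separately from the 4 saline and the 4 UAG arrays, which share no sample, the differences of 18194 genes correlated with r = 0.903, a value across genes, which are not independent replicates. Of 385 genes at least 8-fold higher in WAT with saline and 381 with UAG, 329 were shared, 85.5% and 86.4% of them. Of 491 and 515 genes at least 8-fold higher in liver, 472 were shared, 96.1% and 91.7%. All 879 genes at least 8-fold apart in the pooled fit had the same sign in both, which pooling the arrays favours. In limma no probe set passed for a tissue difference that changed with treatment (0 of 45037, smallest adjusted p 0.200, 2293 at an unadjusted p under 0.05), and without WAT saline replicate 1 or 2 this became 32 or 29.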

How the data were processed

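The authors hybridized RNA to Affymetrix Mouse Genome arrays and deposited a table of log2 values per probe set, with MAS5 named in the submitters' processing notes and quantile normalization in the study's methods. The base of the logarithm is not given in the sources used here and was taken as 2. No further scaling was done. Probe sets of controls were left out, and of the other 45037, 34945 named 1 gene, 932 named several and 9160 none in the annotation table. The 4 WAT and 4 liver arrays were fitted in limma 3.58.1 (R 4.3.3) with tissue and treatment terms and an intensity trend, with Benjamini-Hochberg adjustment over all probe sets and a threshold of 0.05. A second fit with group means tested whether the tissue difference changed with treatment. Each gene was represented by the brightest probe set that names it alone. Floors of 30 applied to folds only.

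Members and lists were chosen with earlier results of these data known. Named were the 12 genes with the largest difference in each direction, up to 4 members per list with the largest difference and up to 3 against its majority, the paired genes, cell type markers, Ghsr, and 10 genes per direction outside every list. The 12 and the 10 came only from genes that passed and whose arrays did not overlap between the tissues. Other genes, said to be chosen after their values were seen, were added to complete counts. Scripts ran in Python 3.11.15 with pandas 2.3.3 and numpy 2.4.6 and were tested on simulated data. Alternatives were other intensity filters, scalings, fold limits, gene summaries and fits, each treatment alone, and leaving out arrays. The number of arrays, 2 per tissue and treatment, limits the precision.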

Additional observations from a re-analysis of the deposited data

Results flagged for a closer look

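Among the 4 arrays of a tissue, 1 array lay far from the other 3 for 45 of 556 sets of 4 values, taken over the named genes and marker sums. The 556 include sets with all 4 arrays below 30, which were not measured, so that share is understated. The measure was the gap to the nearest of the others divided by the whole range, set against a limit that chance passes about 1 time in 20. The value in brackets is that ratio, and no explanation was tested. WAT UAG replicate 1 was the highest of its tissue for the sum of mesothelial markers (0.878). WAT saline replicate 1 was the highest of its tissue for Acaa2 (0.864), Acsl5 (0.843), Amacr (0.893), Bckdk (0.831), Crat (0.866), Cs (0.899), Gys2 (0.873), Idi1 (0.932), Pcx (0.950) and Pkm (0.832). WAT saline replicate 1 was the lowest of its tissue for Abcg8 (0.871) and Pck1 (0.843). WAT saline replicate 2 was the highest of its tissue for Serpina1c (0.902), the sum of smooth muscle markers (0.917), the sum of neutrophil markers (0.847) and the sum of reproductive tract and ovary markers (0.886). WAT saline replicate 2 was the lowest of its tissue for Id3 (0.909), Irs3 (0.860), Pparg (0.869) and Rbp4 (0.861). Liver UAG replicate 1 was the highest of its tissue for Lipe (0.851), Pcx (0.860), Stab1 (0.859) and Tbc1d4 (0.987). Liver UAG replicate 2 was the highest of its tissue for 1300017J02Rik (0.999), Acaa2 (0.863), Apoa1 (0.879), Ces1c (0.942), Cyp2c29 (0.890), Cyp2c68 (0.913), Fabp1 (1.000), Hamp (0.884), Hpx (0.930), Rbp4 (0.952) and the sum of hepatocyte markers (0.946). Liver saline replicate 1 was the highest of its tissue for Acsl5 (0.841), Cidec (0.869), Fasn (0.912) and Fgfr4 (0.878). Liver saline replicate 1 was the lowest of its tissue for Pck1 (0.862). Liver saline replicate 2 was the highest of its tissue for Clec4g (0.966) and Itih2 (0.831). Liver saline replicate 2 was the lowest of its tissue for Cideb (0.869) and Dpp4 (0.849).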

How the results depend on the processing

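Most counts held within 1.5 times of those reported. With a mean intensity of at least 100, 5703 probe sets were higher in WAT and 5079 in liver. After centring on ribosomal proteins 3872 were higher in WAT and 18555 in liver, 377 of WAT at least 8-fold, and by gene 2004 and 8084, with 238 of WAT at least 8-fold. From the saline arrays only the counts were 4764 and 4017 probe sets, and 2565 and 2001 genes. A 2-fold limit in place of 8-fold gave 4004 and 3303 probe sets and 2193 and 1638 genes, and a 4-fold limit 1470 and 1341 probe sets and 888 and 792 genes, for WAT and liver in turn. With no floor 1075 probe sets and 576 genes of WAT were at least 8-fold apart. The cause of these shifts was not tested beyond what fewer probe sets, fewer arrays or another limit give by construction.

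Leaving out each array in turn gave 7826 to 8793 probe sets higher in WAT and 6930 to 7652 in liver, with 582 to 605 and 761 to 775 at least 8-fold apart, and by gene 4051 to 4497 and 3246 to 3590, with 368 to 384 and 499 to 501. Probe sets whose tissue difference changed with treatment numbered 0 to 32 in those fits, 1 after centring on ribosomal proteins and 3 with all 12 arrays in the fit. Of 69 lists with a majority, 68 to 69 did not reverse it when an array was left out, and 53 did not after centring on ribosomal proteins. Lists with equal numbers on both sides were counted among these.

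Deviations of same-numbered arrays correlated with 0.092 with saline and 0.039 with UAG over 26272 probe sets. With 2 arrays per tissue and treatment this gives a single value per treatment. It cannot decide whether same-numbered arrays come from the same mouse. With the replicate number as a block, 9135 probe sets were higher in WAT and 7900 in liver, and 1 passed for a tissue difference that changed with treatment.

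Single genes that changed sign did so on another scale or summary. After centring on ribosomal proteins the differences were -0.66 for Adgre1, -0.23 for Cdh5, -0.11 for Gusb, -0.0066 for Hprt, -0.30 for Ivd, -0.12 for Mrc1, -0.30 for Ptprc, -0.28 for Slc16a1 and -0.26 for Stab1 on the log2 scale. With all probe sets of each gene averaged they were 1.76 for Dio2 and -0.59 for Polr2a.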

Other observations

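Genes of metal and retinoid handling added to the liver side. Of 18 genes of iron, copper, haem and metal binding 2 were higher in WAT and 12 in liver, where Bmp6, a signal that sets hepcidin, was 2.55-fold and Heph, a ferroxidase, at least 25.1-fold higher in WAT. Of 17 retinoid genes 3 were higher in WAT and 12 in liver, and on the WAT side were Rbp7, a retinol binding protein of fat vessels (at least 20.4-fold), and Aldh1a2 (at least 8.00-fold) and Aldh1a3 (at least 3.16-fold), which make retinoic acid. Of 21 serpins 4 were higher in WAT and 13 in liver. The Wnt list had 11 genes higher in WAT and 8 in liver of 31 as deposited and 9 and 12 after centring on ribosomal proteins, and the lysosomal list 13 genes higher in WAT and 6 in liver of 28 and 4 and 14.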
